A study of Mus musculus with 12 samples.

Results

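Paused Mettl3-knockout cells were compared with growing wild-type cells, a pair of groups that differs in both genotype and condition. The comparison used 6 of the 12 libraries of the series, 3 per group. The wild-type group (WT FBS) held E14 mouse embryonic stem cells grown on gelatin in FBS and LIF. The knockout group (KO paused) held E14 cells labelled Mettl3-KO and kept for 2 weeks in the same medium with 200 nM INK128, a kinase inhibitor of mTOR. The WT paused and KO FBS libraries, 3 each, served only to show where the KO paused cells differed from paused wild-type or from growing knockout cells. The labels give neither the number of knockout clones nor the part of Mettl3 that was targeted, so the genotype cannot be told apart from other differences between the lines. They do not say whether replicates came from separate cultures, so p-values measure the spread between these samples, which may be technical. The question was which genes of paused knockout cells stayed at the level of growing wild-type cells, counted per cell, and which left it.

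Mettl3 carries the methyltransferase activity that adds N6-methyladenosine (m6A) to messenger RNA, a mark known for shortening the life of many transcripts in embryonic stem cells. mTOR is a kinase that ties protein synthesis, ribosome production and biosynthesis to nutrients and growth factors. Its inhibition brings embryonic stem cells into a paused state that resembles embryonic diapause, in which division slows while pluripotency is kept.

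Library depth was 12027770, 39566713 and 30643409 counts in WT FBS replicates 1 to 3 and 20670968, 19501717 and 29793338 in KO paused. RNA came from 200000 cells per sample, and ERCC spike-in RNA was added to the purified RNA. A per-cell value below is a gene's count per 100000 effective ERCC counts, and a relative value is measured against the typical gene. The per-cell value is an average over all lysed cells: fewer cells with a transcript and less transcript in every cell cannot be told apart. Library WT FBS replicate 1 stood apart from the other two of its group, with 1567 genes over 2-fold from their mean against 324 and 249 for replicates 2 and 3, and with 28.0% of its counts on the ribosomal RNA gene Rn45s against 17.6% and 15.4%. The KO paused libraries had at most 7 such genes. The Rn45s share was highest in replicate 1 of all 4 groups, with 22.1% in KO paused replicate 1 against 13.4% and 12.9%. The stem cell factor Pou5f1 was abundant in both groups, at 3789, 5778 and 7149 in WT FBS and 1524, 2072 and 1935 in KO paused. All 7 tested genes of chromosome Y were higher in KO paused, and 6 listed Y-linked genes summed to 0.52 to 3.14 per-cell counts in WT FBS and 1123 to 1315 in KO paused libraries, so the lines differ in more than the label.

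RNA per cell in KO paused libraries was about 0.529 of that in WT FBS. Cellular counts per ERCC count were 72.9, 67.7 and 79.1 in WT FBS and 37.3, 41.0 and 37.7 in KO paused, and the groups did not overlap. The means were 73.2 ± 5.69 and 38.7 ± 2.06 (SD, n = 3), and the log2 difference was −0.92 ± 0.08 SE. The exact two-sided permutation p was 0.1, the smallest that 3 against 3 allows, and 0.15 after adjustment over 3 comparisons. KO paused cells were not shown to differ from WT paused cells, at 33.1 ± 5.21 (log2 0.24 ± 0.14, exact permutation p = 0.3, adjusted p = 0.3).

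**Figure D1:**
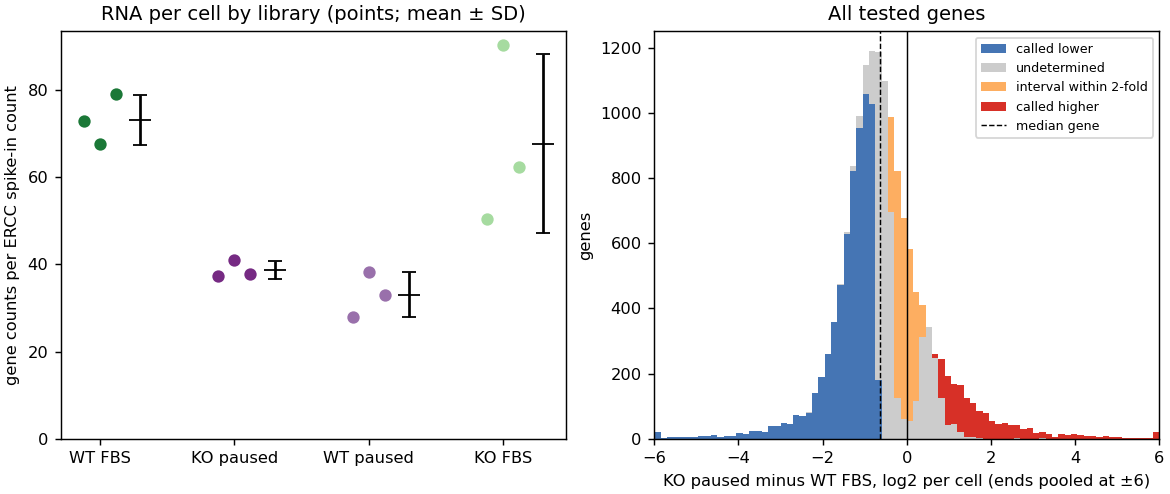
Left, cellular counts per ERCC count in each library of the 4 groups (points) with the mean and SD (bars); the KO paused libraries sit between 37.3 and 41.0, below all WT FBS libraries. Right, the number of tested genes by log2 difference per cell, KO paused minus WT FBS, coloured by class; the dashed line is the median gene at −0.65.

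Far more genes of KO paused cells were called below the growing wild-type level than above it. Of 15281 tested genes, 6677 were lower per cell (43.7%) and 1400 higher (9.16%) at an edgeR adjusted p under 0.05, and the median log2 difference was −0.65. Against the typical gene, 4656 were higher (30.5%) and 4404 lower (28.8%). The scale thus set the split: 17.3% of per-cell calls were higher, against 51.4% of relative calls. Without WT FBS replicate 1 the per-cell counts were 6443 lower and 1481 higher, and the relative counts 5578 and 5594. The libraries of the groups did not overlap per cell for 8074 lower genes (52.8%) and 1904 higher genes (12.5%). Any error in a library's spike-in scale moves each of its genes alike. Calls made per cell therefore depend on each other, and p-values from the pooled degrees of freedom are too small. With 8 residual degrees of freedom the counts were 4694 lower and 988 higher.

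No gene could be shown to hold within 1.5-fold. That class asked for a gene that was not called and whose whole 95% interval of the per-cell difference lay within 1.5-fold, and 0 of 15281 genes met it in edgeR. The median SE of a per-cell difference was 0.33. DESeq2 put 54 genes in the class, and edgeR 728 when fitted over the 6 libraries alone. Within 2-fold, the wider margin, 2574 genes held (16.8%), and 4630 were neither called nor shown to hold. Of the 2574, 2034 were higher relative to the typical gene.

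The genes within 2-fold with the most counts included several long and essential transcripts. Malat1, a nuclear non-coding RNA, was at 32125, 13015 and 15787 in WT FBS and 20276, 19924 and 20307 in KO paused (log2 −0.01 ± 0.35). Its WT FBS values spread beyond the KO paused values on both sides. Mki67, the proliferation marker Ki-67, was at 4141, 3085 and 4203 and 3510.3, 4382 and 3695 (log2 0.02 ± 0.33). Sox2, a core pluripotency factor, was at 2305, 3300.0 and 4107 and 2264, 2901 and 2964 (log2 −0.26 ± 0.33, adjusted p = 0.517). The KO paused values of Mki67 and Sox2 overlapped with those of WT FBS. Mcl1, a survival protein of the Bcl2 family whose protein and message turn over fast, was at 2489, 2721 and 3007 and 2201, 2730.2 and 2462 (log2 −0.15 ± 0.33), while WT paused cells had 1037, 1745 and 1323. The difference between the paused groups passed for Mcl1 (0.85 ± 0.33, adjusted p = 0.0343). Arid1a, a subunit of the BAF chromatin remodeller, was at 2847, 3203 and 4361 and 3015, 3818 and 3525 (log2 −0.01 ± 0.33). Nsd1, a histone H3 lysine 36 methyltransferase (−0.13), Ncor1, a nuclear co-repressor (−0.27), Fat1, an atypical cadherin (−0.03), Macf1 and Flna, which bind the cytoskeleton (0.03 and 0.34), Col18a1, a basement membrane collagen (0.12), and Mrgpra6 (0.25) made up the other seven. Arid1a, Nsd1, Ncor1, Fat1, Mcl1 and Sox2 had per-cell estimates below 0, none of them called. They were higher relative to the typical gene (0.65, 0.52, 0.38, 0.63, 0.49 and 0.40), as the median gene was at −0.65 per cell. For Sox2 the relative call was lost without KO paused replicate 3 (0.34, adjusted p = 0.085). The genes within 2-fold had a median exon length of 4802 bases, those called higher 4629.5, those called lower 4045 and the undetermined ones 4219. With genes in 5 classes of equal size by exon length, the median per-cell difference was −0.75 in the shortest class and −0.51 in the longest. WT FBS replicate 1 itself deviated from the others of its group by −0.17 and 0.11 in those classes, and its part in this was not tested.

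Many genes within 2-fold of WT FBS in KO paused cells were below that level in paused wild-type cells, as were most genes. Of the 2574, 1621 were lower in WT paused than in WT FBS, a share below the 68.8% of all genes (1.15% of all were higher). Of the 1621, 1146 were higher in KO paused than in WT paused when the paused groups were tested against each other. A gene near WT FBS in 1 paused group and below it in the other tends to differ between them, so this count follows largely from the selection. Over all genes, 4146 were higher in KO paused than in WT paused (27.1%) and 859 lower (5.62%). The median gene differed by 0.39 per cell and −0.002 relative to the typical gene, so these per-cell counts include a shift common to most genes. With 8 residual degrees of freedom the counts were 2505 and 470, and 567 were lower without WT paused replicate 2. All 3 comparisons share libraries, so their counts are not independent of each other.

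The 8 genes of this kind with the largest difference between paused groups were low to moderate in level. Sox3, a SoxB1 factor of neural progenitors, was at 7.99, 18.6 and 25.6 in WT FBS, 15.2, 18.1 and 22.5 in KO paused and 0.963, 0.741 and 0.747 in WT paused. Its difference between paused groups was 4.47 ± 0.50 (adjusted p = 2.24e-17). Mex3b, an RNA-binding ubiquitin ligase, was at 12.3, 13.4 and 16.5, 13.7, 17 and 17.5 and 1.44, 0.741 and 1.2 (between paused groups 3.75 ± 0.47). Each KO paused library lay above each WT paused library for both. Magohb, a core protein of the exon junction complex, was at 6.76, 16.5 and 20.7, 15, 13.4 and 21.2 and 0.963, 1.85 and 1.49 (3.54 ± 0.46). Tagln, an actin-binding protein of smooth muscle, was at 38.7, 60.9 and 80, 72.2, 100.1 and 53 and 9.15, 9.64 and 6.72 (3.16 ± 0.37). Mmp9, a matrix metalloproteinase (4.34), Fndc3c1 (4.05), Clu, an extracellular chaperone (3.79), and Synpo2, an actin-binding protein (3.25), completed the set. In growing knockout cells the mean of each of the 8 was higher than in KO paused, for example 149, 282 and 204 for Clu and 81.7, 167 and 129.8 for Magohb.

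**Figure D2:**
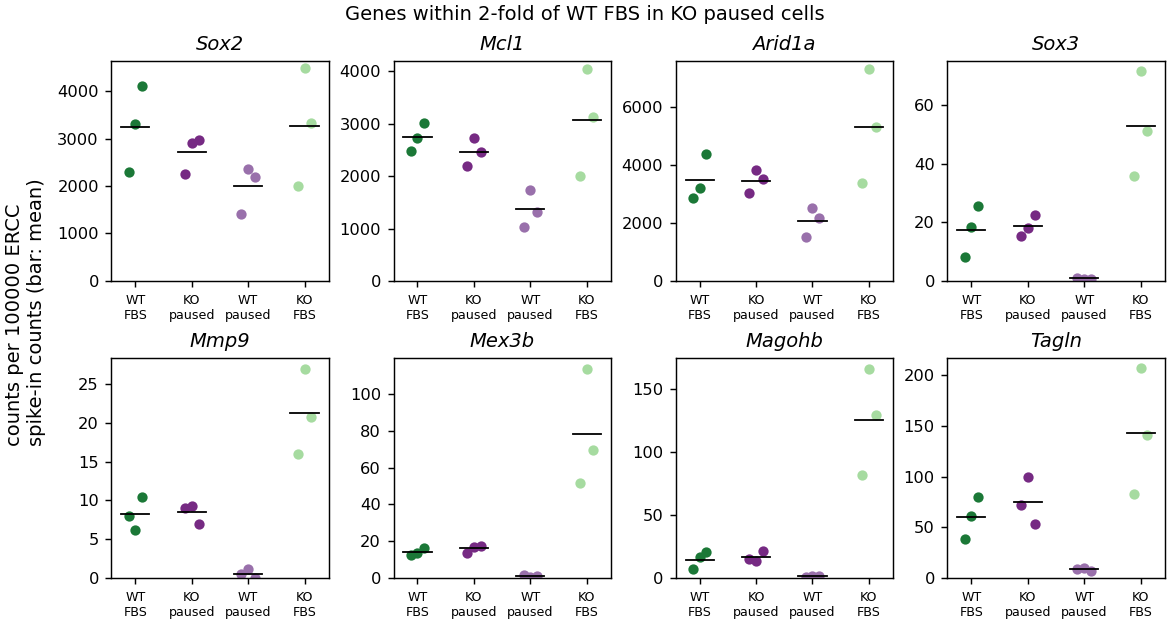
Per-cell level (counts per 100000 ERCC counts, linear axes from 0) of 8 genes within 2-fold of WT FBS in KO paused cells, in each of the 12 libraries (points) with group means (bars). For Sox3, Mmp9, Mex3b, Magohb and Tagln the WT paused libraries lie lowest, while KO paused and WT FBS libraries overlap.

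The pluripotency network split. Pou5f1 (chromosome 17, 35506018 to 35510772, plus strand), which encodes Oct4, was lower in every KO paused library (−1.60 ± 0.34, adjusted p = 2.23e-05). Nanog (chromosome 6, 122707489 to 122714633, plus strand) was at 1075, 1479 and 1852 in WT FBS and 647, 857 and 733 in KO paused (−0.98 ± 0.33, adjusted p = 0.00737), without overlap. The Nanog call was lost without WT FBS replicate 2 (−0.91), WT FBS replicate 3 (−0.78) or KO paused replicate 1 (−0.89). Its neighbourhood was low as well: the 49 nearest genes had medians of −1.17 per cell and −0.53 relative, where Nanog had −0.33 relative. In growing knockout cells these neighbours had a relative median of −0.42. WT paused cells held more Nanog than KO paused cells, at 1041, 1641 and 1364 (−0.85 ± 0.32 for KO paused minus WT paused, adjusted p = 0.0297). Of the fixed list of naive pluripotency factors, 18 of 26 were lower and 0 higher, with a median of −1.21 per cell and −0.57 relative. Over all genes 43.7% were lower and 9.16% higher. Tbx3, a T-box transcription factor of naive cells, went from 1821, 685 and 1055 to 11.5, 15.7 and 8.19 (−6.66 ± 0.41). Dppa5a, a marker of naive cells, went from 1239.6, 2085 and 2676 to 36.3, 50.9 and 57.2 (−5.38 ± 0.39), and Klf5 from 2511, 1365 and 2215 to 155, 208 and 134 (−3.61 ± 0.35). These 3 fell far below the WT paused level too, at 429, 689.8 and 640.4, 220.3, 371 and 354 and 629, 992 and 864. Klf2 (0.10), Klf4 (−0.32) and Lifr, a subunit of the LIF receptor (−0.26), stayed within 2-fold of WT FBS. In the core list, 6 of 10 were lower, and Dnmt3l, a cofactor of de novo DNA methylation, was the 1 that rose, from 323, 530.2 and 613 to 884, 1252 and 975 (1.08 ± 0.32).

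Formative and primed genes went both ways, with 5 higher and 7 lower of 20 tested (median −0.37), against 9.16% and 43.7% of all genes. Leaving out WT FBS replicate 1 left 2 higher, and leaving out WT FBS replicate 2 or 3 left 4 lower. Cdh2, which encodes N-cadherin, went from 54.7, 71.4 and 103 to 215, 257 and 286 (1.72 ± 0.33), and Zic2, a zinc-finger factor of primed cells, from 70.6, 182 and 228 to 417, 572 and 496 (1.62 ± 0.32). Pou3f1, a POU factor of the epiblast, rose by 1.17 (adjusted p = 0.00113), a call lost without WT FBS replicate 1 (0.78, adjusted p = 0.0549). Otx2, a homeobox factor that drives the exit from naive pluripotency, fell from 119.8, 220.0 and 188 to 16.5, 25.5 and 10.7 (−3.34 ± 0.36).

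**Figure D3:**
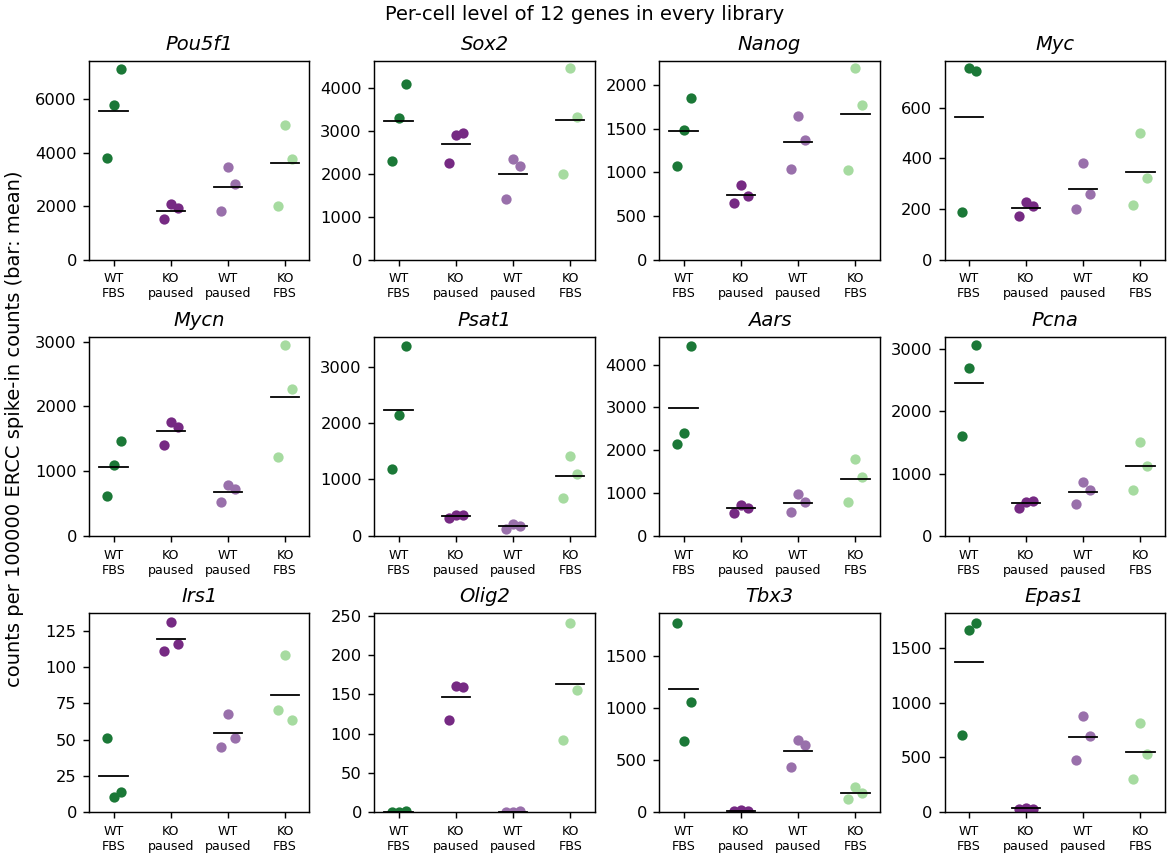
Per-cell level (counts per 100000 ERCC counts, linear axes from 0) of 12 genes in each of the 12 libraries (points) with group means (bars). Tbx3 and Epas1 are lowest in KO paused, Olig2 is near 0 in both WT groups, and the Sox2 values of WT FBS and KO paused overlap.

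Neural lineage factors had the highest median of the lists other than the Y-linked one. Of 34 listed members, 21 passed the count filter. A gene that is high in 1 group alone can pass it, so the count and the median depend in part on the filter. Of these 21, 11 were higher and 2 lower per cell, against 9.16% and 43.7% of all genes, with a median of 0.93. The lower count was 1 without WT FBS replicate 2 or 3 or KO paused replicate 1, and 3 without WT FBS replicate 1. Olig2 and Olig1, basic helix-loop-helix factors of oligodendrocyte and motor neuron progenitors on chromosome 16, were nearly silent in WT FBS. Olig2 had 0, 0.52 and 0.784 in WT FBS and 118, 161 and 159.6 in KO paused, a ratio of pooled counts of 275.3-fold (95% counting interval 126 to 751). Olig1 was at 2.46, 1.04 and 2.35 and 133, 166 and 196 (6.52 ± 0.47). Six3, a homeobox factor of the forebrain, had 0.614, 0.52 and 1.31 and 23.3, 33.4 and 37.2, 39.9-fold (20.9 to 87.7). Neurod1, a driver of neuronal differentiation, went from 8.6, 19.8 and 25.1 to 166, 217 and 222 (3.45 ± 0.37). For Olig2, Olig1 and Neurod1 the levels in growing knockout cells overlapped, at 91.8, 241 and 156, 83.5, 201 and 165 and 100.2, 273 and 172, and Six3 had 1.65, 7.52 and 3.53 there. Gsx2, one of the lower members, had 8 counts in all WT FBS libraries and 0 in KO paused, at least 4.21-fold lower when 3 counts are taken as the limit for the whole group. The summed level of the list was 683 to 1244 in WT FBS and 1349 to 1783 in KO paused libraries.

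Other lineage markers moved in both directions. Extraembryonic endoderm markers counted 12 of 22 lower and 3 higher (median −1.41), against 43.7% and 9.16% of all genes. In WT paused cells 20 of the 22 were lower than in WT FBS, against 68.8% of all genes, with a deeper median of −2.83. Between the paused groups, 9 were higher in KO paused and 5 lower, against 27.1% and 5.62% of all genes. Cubn, an endocytic receptor of yolk sac endoderm, went from 337, 127 and 216 to 2.22, 1.94 and 2.34 (−6.67 ± 0.44), Gata4 from 35, 23.6 and 36.3 to 0.926, 1.08 and 1.17, and Pdgfra from 76.8, 24.8 and 51.5 to 1.48, 3.24 and 1.17. Srgn had 274 counts in WT FBS and 2 in KO paused, a 216-fold lower level (59.3 to 1796). Foxa2 moved the other way, from 4.91, 1.73 and 3.4 to 20.2, 29.6 and 27.7 (3.10 ± 0.43), as did the basement membrane collagen Col4a2, from 213, 153 and 250.5 to 428, 538 and 513 (1.27 ± 0.32). In WT paused cells Foxa2 was 0, 0 and 0.448. Trophoblast markers had 1 higher and 7 lower of 18: Fgfr2, an FGF receptor, rose from 60.2, 49.2 and 66.9 to 184, 212 and 196, and Tfap2a fell from 19, 14.6 and 15.2 to 1.67, 1.73 and 1.69. Mesendoderm markers had 2 higher and 6 lower of 15, with Kdr from 6.76, 6.07 and 14.6 to 50.9, 70.1 and 74. The lower shares of the trophoblast and mesendoderm lists were near the 43.7% of all genes. Fibroblast markers had 7 of each direction among 15 (4 lower without WT FBS replicate 3), and their summed level was 9277 to 20013 in WT FBS and 5865 to 7519.9 in KO paused. Blood and endothelial markers had 2 higher and 4 lower of 9. None of the 18 genes of the two-cell-like list passed the count filter. A part of other cell types in these values was not tested.

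The 12 genes with the largest fall per cell had per-cell levels of at most 39.7 in KO paused libraries, and some were low in growing knockout cells too. Kcnj3, a potassium channel subunit, had 981 counts in WT FBS and 8 in KO paused (194-fold lower, 97.9 to 450.0). Nkx6-3, a homeobox factor, went from 282, 143 and 185 to 1.48, 3.02 and 1.43 (−6.71 ± 0.45), with 1.65, 2.74 and 0.442 in KO FBS, and Fam129a, a stress-induced regulator of translation, from 292, 245 and 293 to 4.45, 3.24 and 3.38 (−6.22 ± 0.42). Epas1, which encodes HIF-2 alpha, went from 708, 1661 and 1733 to 27.2, 39.7 and 30.8 (−5.39 ± 0.38), while WT paused libraries had 475, 874 and 698 and KO FBS libraries 304, 813 and 534. Each KO paused library lay below all libraries of the other groups for Epas1. Ccnb1ip1, a meiotic ubiquitin ligase (−6.04), Pla2g1b, a secreted phospholipase (−6.02), Phf11d, Lgals9, a galectin (−5.53), and Skida1 (−5.47, also low in KO FBS at 1.65, 3.42 and 1.32) were in the set with Cubn and Tbx3. Kctd19 rested on WT FBS replicate 1, at 90.3, 3.29 and 3.92 in WT FBS and 0.37, 0.216 and 0.26 in KO paused, and its log2 difference of −6.59 became −3.55 without that library.

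Among the 12 with the largest rise, 4 were Y-linked: Uty (0, 0.173 and 0.523 against 357, 407 and 349.7), Eif2s3y, Ddx3y and Kdm5d. They rose by 1372-fold (469 to 6653), 814-fold (318 to 2988), 486-fold (256 to 1063) and 504-fold (197 to 1850) in pooled counts, and growing knockout cells carried them as well, with 172, 295 and 217 for Uty. Fitted log2 values on so few counts moved by over 0.58 when 1 library was left out: Uty from 10.30 to 11.17 without WT FBS replicate 3, Eif2s3y from 9.50 to 10.25 without replicate 1 and 8.60 without replicate 2, Ddx3y from 8.83 to 8.14 without replicate 2 and 10.32 without replicate 3, and Kdm5d from 8.81 to 9.57 without replicate 1. Trim67, a neuronal ubiquitin ligase, differed from them, at 1.23, 3.29 and 5.23 in WT FBS, 273, 386 and 357 in KO paused, 20, 38.9 and 21.8 in WT paused, with KO FBS libraries at 54.7, 66.7 and 73.1. Myl3, a myosin light chain, had 2 counts in WT FBS and 773 in KO paused (245-fold, 67.5 to 2024). Its fitted value of 7.73 became 6.90 without WT FBS replicate 2 and 10.68 without replicate 3. Pof1b (5.53) and Kctd12b (5.01), both X-linked, and Kcna3, a potassium channel on chromosome 3 (4.89 ± 0.50, 5.86 without WT FBS replicate 3), completed the set with Olig2, Olig1 and Six3.

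A stretch of chromosome 3 stood above the rest of the genome in KO paused cells. In running windows of 50 tested genes, the 2 highest of 576 windows lay there, at chr3:103964536-113630149 in build GRCm38. Their median relative differences from WT FBS were 1.47 and 1.29. Of the 75 tested genes wholly inside this stretch of 9.67 Mb, 35 were higher per cell (46.7%, against 9.16% of all genes) and 4 lower. The median was 0.61 per cell and 1.26 relative. The stretch was chosen by its windows over 1 in these same relative values, so its shares and medians are no separate evidence for it. The mean log2 excess was 1.26, 1.20 and 1.20 in the KO paused libraries, 0.34, 0.24 and 0.24 in the KO FBS libraries and between −0.05 and 0.04 in WT libraries. It was therefore seen in all 3 KO paused libraries and was small in growing knockout cells. Kcna3, Rbm15, Lamtor5, Slc16a1 and Atp5f1 lie in the stretch, and their values are given with this neighbourhood in view. The stretch was not the only raised neighbourhood. Outside it, the 49 genes nearest to Spry4 had medians of 1.16 relative and 0.48 per cell in KO paused, and −0.36 relative in KO FBS.

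Other regions lay low in the knockout line. The lowest window, at chr3:141837136-157316445, had a median of −0.89 relative in KO paused and −0.87 in KO FBS. Chromosome 8 from 83900105 to 88636128 had −0.75 and −0.79 in the 2 windows covering it, and −1.04 and −0.88 in KO FBS. Chromosome 1 as a whole had a per-cell median of −1.11 with 63.7% of its 851 genes lower, and on chromosome 8 58.6% of 794 genes were lower. On chromosome 1 between 39900913 and 58595964, the windows were −0.64 in KO paused but 0.48 and 0.43 in KO FBS. DNA was not measured, and the copy number of these regions was not tested.

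**Figure D4:**
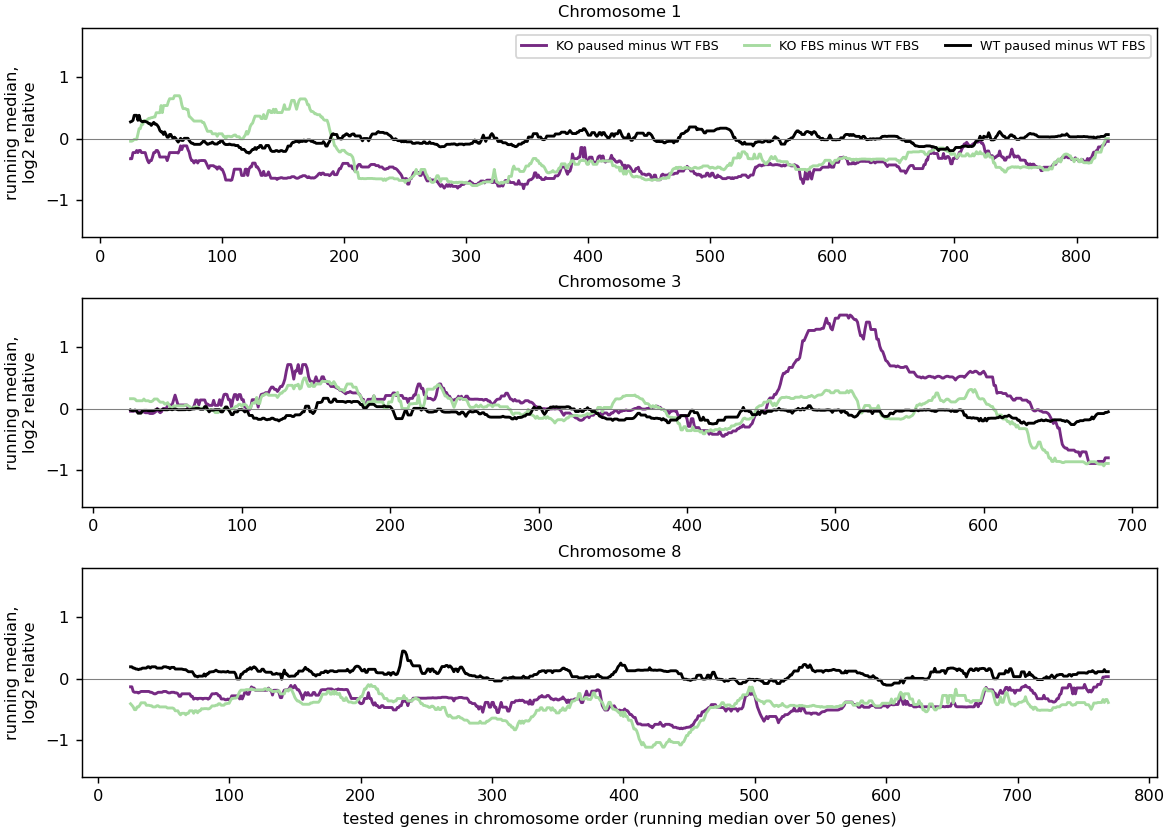
Running median over 50 tested genes of the relative log2 difference from WT FBS, in gene order along chromosomes 1, 3 and 8, for KO paused, KO FBS and WT paused libraries. The KO paused line rises to its highest values on chromosome 3 where the KO FBS line stays near 0, and both KO lines lie below 0 over much of chromosomes 1 and 8.

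Mettl3 itself (chromosome 14, 199, 227 and 246 in WT FBS and 109, 146 and 128 in KO paused) was lower per cell (−0.81 ± 0.32, adjusted p = 0.0259; −0.17 relative, not called). Without WT FBS replicate 1 the relative difference was called (−0.26, adjusted p = 0.00976). A count summed over the gene cannot show whether the transcript is intact and is no check of the deletion. Leaving out WT FBS replicate 2 (−0.74), WT FBS replicate 3 (−0.74), KO paused replicate 1 (−0.71) or KO paused replicate 3 (−0.81) ended the per-cell call. Of the m6A writer list, 1 of 11 was higher and 3 lower (median −0.43), against 9.16% and 43.7% of all genes. Leaving out any of those 4 libraries left 1 lower. Mettl14, the partner of Mettl3, was not called (−0.66 ± 0.32). Wtap, the scaffold subunit, stayed within 2-fold, at 1025, 1071 and 1308 and 931, 1096 and 1014 (−0.16 ± 0.32), above the 428, 649 and 548 of WT paused cells. The member that rose was Rbm15, an RNA-binding subunit, from 743, 420.5 and 651 to 1058, 1295 and 1060.2 (0.91 ± 0.32, adjusted p = 0.0111), and its neighbours on chromosome 3 had a median relative difference of 1.18. The call was lost without WT FBS replicate 2 (0.76) or KO paused replicate 2 (0.81). Of erasers and readers, 9 of 15 were lower (4 without WT FBS replicate 3 or KO paused replicate 1) and none higher. Fto, an m6A demethylase, went from 512, 499 and 619 to 181, 223 and 206 (−1.42 ± 0.32), and Hnrnpc and Igf2bp3, both RNA-binding readers, fell by 1.49 and 1.31. The readers Ythdf2, which recruits decay, at 569, 839 and 1051 and 894, 1072 and 996 (0.27 ± 0.32), and Ythdc1, the nuclear reader (0.08 ± 0.32), stayed within 2-fold.

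The mTOR pathway list had 19 lower and 2 higher of 37 members (median −0.77), against 43.7% and 9.16% of all genes. Without KO paused replicate 3, 12 were lower. Rragd, a Rag GTPase, went from 496, 127 and 150.1 to 626, 767 and 660.1 (1.42 ± 0.32; 2.31 without WT FBS replicate 1), and Ddit4l, an mTOR inhibitor, from 10.4, 32.6 and 39.7 to 95.6, 82.6 and 66.7 (1.52 ± 0.35). Sec13, a GATOR2 and nuclear pore subunit, fell from 416, 769 and 899.9 to 191, 244 and 216 (−1.68 ± 0.32), as did the TSC subunit Tbc1d7 (−1.92) and the GATOR1 subunit Nprl3 (−1.75). Lamtor5, a Ragulator subunit on the chromosome 3 stretch (neighbours 1.20 relative), was within 2-fold (0.36). Among translation repressors and kinases, 10 of 15 were lower (6 without WT FBS replicate 2, and 5 without WT FBS replicate 3, KO paused replicate 1 or KO paused replicate 3) and Eef2k, which inhibits elongation, was higher, from 202, 79.1 and 107 to 307, 387 and 312 (1.38 ± 0.33). Eif4ebp1, the repressor of cap-dependent translation that mTOR phosphorylates, was at 483, 798 and 1289 and 339, 402 and 364 (−1.22 ± 0.32). Without WT FBS replicate 3 it was −0.80 and not called.

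Several growth and protein synthesis lists were lower for most members, where 43.7% of all genes were lower. Translation factors counted 38 of 44 lower and none higher (median −1.25 against −0.65 for all genes). Pabpc1, the poly(A)-binding protein, went from 12790.5, 16290.0 and 19648 to 3329, 4142 and 4190.3 (−2.06 ± 0.36), without overlap. Eif2b4, a subunit of the exchange factor of eIF2, fell from 274, 344 and 394 to 71.7, 92.3 and 91.6 (−1.99 ± 0.33). Ribosome biogenesis factors had 67 of 78 lower with a median of −1.19, with Ddx18 falling by 2.02 and Heatr1, of the small-subunit processome, by 1.58. Imp3 was within 2-fold, at 136, 194 and 218 and 147, 184 and 167. Cytosolic ribosomal protein genes had 63 of 78 lower at a median of −0.96, a count that dropped to 27 without WT FBS replicate 2, 21 without WT FBS replicate 3 and 22 without KO paused replicate 1. Rpl7 went from 7346, 9890.3 and 11703 to 2347, 3029.8 and 2954 (−1.80 ± 0.35). Their near-identical pseudogenes may share reads. Mitochondrial ribosomal proteins had 49 of 77 lower and 11 within 2-fold, where 16.8% of all genes were within 2-fold. Of the 77, 27 were higher in KO paused than in WT paused, against 27.1% of all genes. Mrpl46 was one, at 83.5, 159 and 171 in WT FBS, 139, 169.8 and 155 in KO paused and 34.7, 54.1 and 42.3 in WT paused (1.83 ± 0.33 between paused groups).

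**Figure D5:**
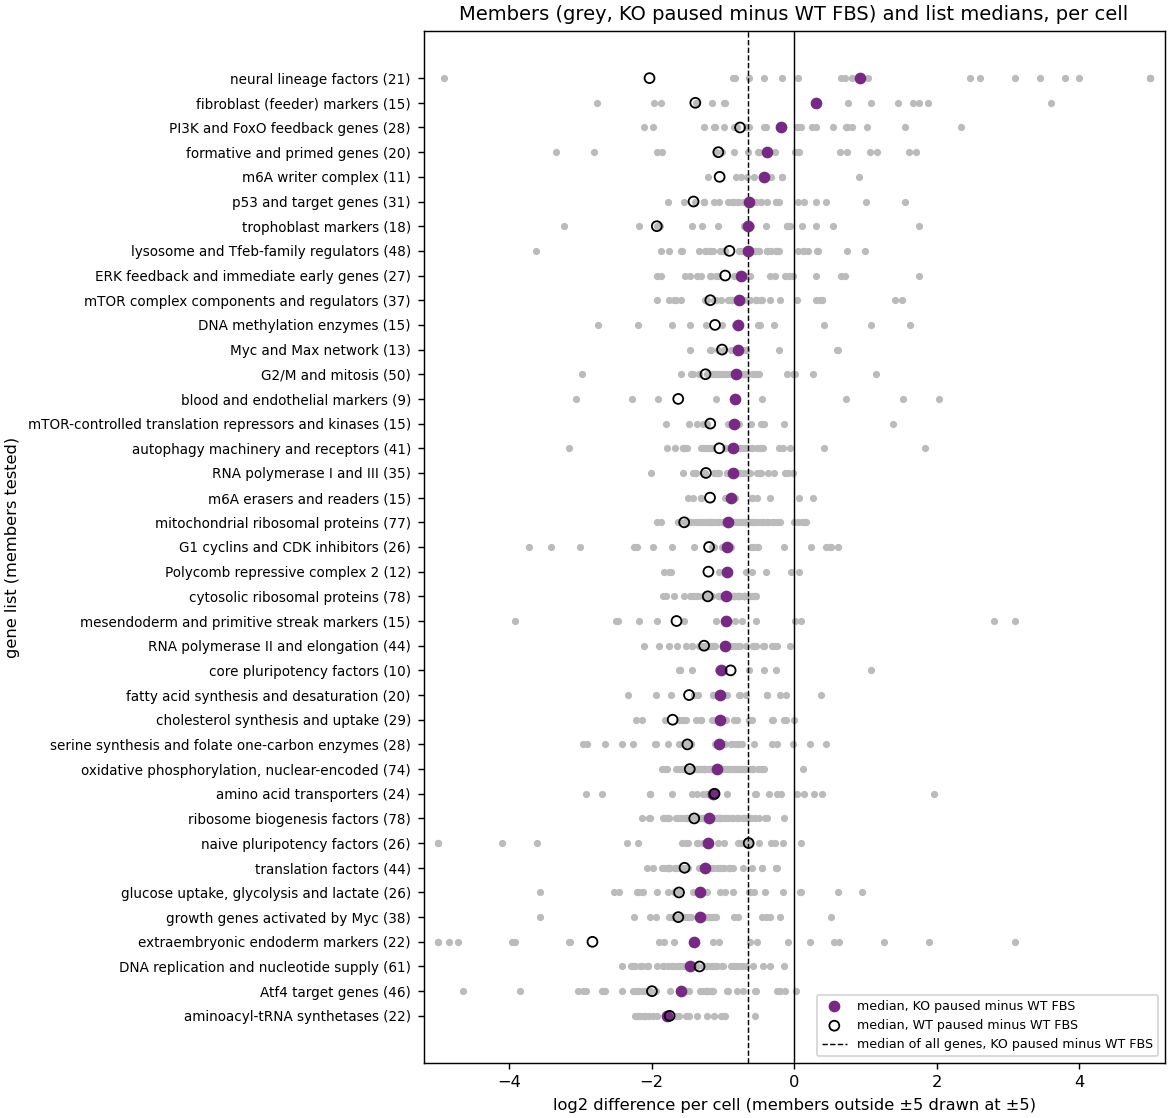
Log2 difference per cell of each tested member of the gene lists, without the Y-linked list (grey, KO paused minus WT FBS), the list median (filled) and the median for WT paused minus WT FBS (open), both of which share the WT FBS libraries; the dashed line is the median of all genes at −0.65. Aminoacyl-tRNA synthetases and Atf4 targets lie lowest, and neural lineage factors highest.

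Of the Myc family, Myc was called lower per cell and Mycn was not. Myc, a driver of growth and ribosome production, was at 189, 755 and 746 in WT FBS and 174, 229.5 and 213 in KO paused (−1.46 ± 0.32, adjusted p = 4.62e-05). WT FBS replicate 1 overlapped with KO paused. Relative to the typical gene Myc was not called (−0.81, edgeR adjusted p = 0.0537), but it was called without WT FBS replicate 1 (−1.24). Mycn was at 619.8, 1102 and 1459 and 1401, 1765 and 1683 and was not called per cell (0.61 ± 0.32, adjusted p = 0.101) but was called without WT FBS replicate 3 (0.91). It was higher relative to the typical gene (1.27 ± 0.19, adjusted p = 0.000118) and than in WT paused cells per cell (1.26 ± 0.33). Of 38 growth genes that Myc activates, 33 were lower and none higher (median −1.32), against 43.7% and 9.16% of all genes. Ldha, which makes lactate, fell from 1778, 4287 and 5633 to 283, 329 and 372 (−3.57 ± 0.36). In glycolysis and lactate handling 17 of 26 were lower and 1 higher, Ldhb, the other lactate dehydrogenase subunit, from 903, 400.3 and 544 to 1029, 1272 and 1253 (0.95 ± 0.32). Its call was lost without WT FBS replicate 2 (0.76) or 3 (0.87). Hk1 and Pdk1 were within 2-fold (0.08 and 0.10). Slc16a1, a lactate transporter on the chromosome 3 stretch (neighbours 1.28 relative), was at 831, 1089.5 and 1321 and 1434, 1815 and 1707 (0.61 ± 0.32, not called).

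Atf4 targets and aminoacyl-tRNA synthetases had the lowest list medians with all libraries in the fit. Atf4 is the transcription factor of the integrated stress response, which activates amino acid synthesis, import and tRNA charging. Of 46 listed targets, 39 were lower and none higher (median −1.58). Of 22 aminoacyl-tRNA synthetases 21 were lower (median −1.79). Over all genes 43.7% were lower. Without WT FBS replicate 3, 28 of the 46 Atf4 targets were lower, with a median of −1.16. Growth genes that Myc activates had a median of −1.12 in that setting. The amino acid lists share members with the Atf4 list, such as Tars and Slc7a1, so their counts are not independent. Aars, which charges alanine tRNA, went from 2152, 2397 and 4448 to 541, 727 and 656 (−2.23 ± 0.34), and Tars, for threonine, from 1300.4, 1376 and 2094 to 308, 416 and 377 (−2.12 ± 0.33). Of serine and folate genes 22 of 28 were lower (14 without WT FBS replicate 3 or KO paused replicate 1), and of amino acid transporters 14 of 24, with medians of −1.05 and −1.14. Psat1, an enzyme of serine synthesis, went from 1181, 2140.2 and 3359.7 to 325, 376 and 365 (−2.65 ± 0.34). Mthfd2, the mitochondrial folate enzyme, changed by −2.97 (−2.20 without WT FBS replicate 3), and Cth, which makes cysteine, from 110.0, 340.2 and 520.0 to 17.6, 25 and 25.1 (−3.84 ± 0.36). Slc7a1, a transporter of cationic amino acids, fell from 668, 595 and 1358 to 98.2, 125 and 123. Nupr1, a stress-induced chromatin protein, went from 24, 13.5 and 47.6 to 0.185, 1.51 and 1.56 (−4.64 ± 0.47; −4.0 without WT FBS replicate 3). Gldc of the glycine cleavage system and Cebpg, an Atf4 partner, were within 2-fold (−0.02 and −0.20), Gldc at 350.1, 308 and 372 and 303, 369 and 345 against 57.3, 95.6 and 83.1 in WT paused cells. The amino acid transporter Slc43a1 rose, from 35, 14.2 and 22 to 73.4, 98.6 and 96.3 (1.96 ± 0.35).

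Because these genes fell together, their promoters were searched for the C/EBP-ATF response element to which Atf4 binds. The letters TGATGNAA were searched on both strands in the 250 bases before each RefSeq start in build GRCm38.p6. They were found for 11 of 37 Atf4 targets with a sequence (29.7%) and 277 of 11379 tested genes (2.43%). All 11 were lower per cell, where 81.1% of the 37 and 44.3% of the 11379 were lower, and their median was −2.09 against −1.28 for the 26 without a match. Over all tested genes the letters went with almost no difference: 128 of the 277 with a match were lower (46.2%), with a median of −0.71 against −0.66 without one. The list was itself drawn up from known targets, and a match is not a measured binding site. The 4 windows below are members described above or in the synthetase list, shown 5′ to 3′ on the gene's strand with the match in capitals.
Nupr1 (chr7:126625547-126625606, minus strand): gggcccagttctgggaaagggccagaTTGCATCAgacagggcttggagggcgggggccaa
Aars (chr8:111033704-111033763, plus strand): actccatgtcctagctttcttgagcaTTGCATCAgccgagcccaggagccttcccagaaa
Gars (chr6:55037941-55038000, plus strand): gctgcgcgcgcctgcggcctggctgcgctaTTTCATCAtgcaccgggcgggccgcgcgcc
Tars (chr15:11399659-11399718, minus strand): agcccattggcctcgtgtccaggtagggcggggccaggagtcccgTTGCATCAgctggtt
The matches start 110, 112, 30 and 15 bases before the annotated start of Nupr1, Aars, Gars and Tars. The per-cell values of Gars, for glycine tRNA, were 2102, 2511 and 3734 in WT FBS and 571, 741 and 652 in KO paused (−2.09 ± 0.34).

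Lipid and respiratory genes also fell, where 43.7% of all genes were lower. Fatty acid genes had 14 of 20 lower (9 without WT FBS replicate 3) and cholesterol genes 22 of 29, with medians of −1.04 and −1.04. Scd1, a stearoyl-CoA desaturase, went from 352, 502 and 549 to 81.3, 98.8 and 98.8 (−2.33 ± 0.33), and stood above WT paused cells, at 23.6, 36 and 33.5 (1.59 ± 0.33, adjusted p = 2.02e-05). Scap, which escorts the sterol-sensing SREBP factors, was within 2-fold (−0.00). Of nuclear-encoded respiratory subunits 61 of 74 were lower (39 without WT FBS replicate 3), and Atp5f1, on the chromosome 3 stretch (neighbours 1.46 relative), was the 1 within 2-fold, at 809.6, 1429 and 1666 and 1241, 1553 and 1468.

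Replication genes had a lower median than mitotic genes, a difference that was not tested. DNA replication and nucleotide genes had 56 of 61 lower (median −1.46), against 43.7% of all genes. Pcna, the sliding clamp, went from 1609, 2695 and 3058 to 446, 549 and 567 (−2.24 ± 0.34), and Rrm2, which supplies deoxynucleotides, from 2066, 2746 and 3347 to 413, 517 and 600.0 (−2.41 ± 0.34). Fen1, the flap endonuclease, stayed within 2-fold, at 398, 629.6 and 654 and 443, 554 and 533. Mitotic genes had 34 of 50 lower (median −0.82), with 18 to 21 lower without WT FBS replicate 2, WT FBS replicate 3, KO paused replicate 1 or KO paused replicate 3. Pttg1, which encodes securin, fell from 197, 223 and 250.5 to 22.2, 31.7 and 31.3 (−2.98 ± 0.35), whereas Cdc25b, a phosphatase that starts mitosis, rose from 163, 106 and 130.5 to 261, 333 and 286 (1.14 ± 0.33). Of G1 regulators 15 of 26 were lower, against 43.7% of all genes. Ccnd3, cyclin D3, went from 847, 1493 and 1762 to 113, 142 and 129 (−3.42 ± 0.35), and Cdkn1c, an inhibitor of CDKs, changed by −3.71 (−3.05 without WT FBS replicate 3). Cdkn1a, another inhibitor, was not called (0.45 ± 0.32) but exceeded the WT paused level (2.41 ± 0.34).

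Receptor and PI3K feedback genes included several that rose. The list joins pathway components with genes that FoxO factors are known to raise when PI3K signalling is low. Of 28 tested, 7 were higher and 8 lower per cell (median −0.18), against 9.16% and 43.7% of all genes. Relative to the typical gene 14 were higher, against 30.5% of all genes. Pik3r1, the regulatory subunit of PI3K, went from 64.5, 61.2 and 82.9 to 175, 219.6 and 218 (1.55 ± 0.33), without overlap. Irs1, the insulin receptor substrate, went from 51, 10.4 and 14.1 to 111, 131 and 116 (2.34 ± 0.36; 3.29 without WT FBS replicate 1), although the 49 genes nearest to it on chromosome 1 had a relative median of −0.74. Irs2 was called at 1.02 ± 0.32, with WT FBS replicate 1 inside the KO paused range, and was 1.83 without that library. The Irs2 call was lost without WT FBS replicate 2 (0.71) or 3 (0.79). Insr (0.81), Igf1r (0.75), Erbb2 (0.73) and Trib1 (0.74) were called at adjusted p of 0.0239 to 0.0469. The Insr call ended when WT FBS replicate 2, WT FBS replicate 3, KO paused replicate 2 or KO paused replicate 3 was left out (0.61 to 0.77), those of Igf1r and Erbb2 without any library but WT FBS replicate 1 (0.55 to 0.84), and that of Trib1 without any but WT FBS replicate 3 (0.49 to 0.89). The number of higher members was 2 without WT FBS replicate 2, 3 without WT FBS replicate 3, 3 without KO paused replicate 2 or 3, and 4 without KO paused replicate 1. Without KO paused replicate 3, 5 were lower. Pik3r3 fell, from 31.3, 60.3 and 82.1 to 13.5, 13.8 and 16.9 (−1.98 ± 0.35). Foxo1 was not called (0.54 ± 0.32).

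In chromatin, degradation and stress lists more members fell than rose, as over all genes, of which 43.7% were lower. In the DNA methylation list 8 of 15 were lower (5 without WT FBS replicate 2, WT FBS replicate 3 or KO paused replicate 1) and 2 rose, Dnmt3l and Tet3, a methylcytosine oxidase, from 245, 159.7 and 261 to 647, 743 and 659 (1.62 ± 0.32), while Tet2 fell from 2673, 1713 and 2392 to 447, 613 and 426 (−2.19 ± 0.34), below the 1645, 2099 and 2202 of WT paused cells. Ezh2, the catalytic subunit of Polycomb repressive complex 2, fell from 1676, 1464 and 1802 to 397, 491 and 505 (−1.83 ± 0.33). Lysosomal genes had 20 lower, 2 higher and 10 within 2-fold of 48 (median −0.65, that of all genes). Over all genes 16.8% were within 2-fold. Without WT FBS replicate 1 or KO paused replicate 1, 13 of the lysosomal genes were lower. The number higher was 4 without WT FBS replicate 1, 1 without KO paused replicate 1 and 0 without any other library. Ctsc, a lysosomal protease, fell from 92.1, 37.8 and 45.8 to 4.08, 5.82 and 4.16 (−3.62 ± 0.39). In autophagy 25 of 41 were lower (15 without KO paused replicate 1). The 1 that was higher, Ulk2, an initiating kinase, rose from 40.5, 23.6 and 31.1 to 91.7, 128 and 115 (1.83 ± 0.35), and the receptor Calcoco2 fell from 34.4, 62.4 and 91.5 to 5.37, 9.49 and 6.63 (−3.15 ± 0.37). Of p53 and its targets 15 of 31 were lower, a share near that of all genes. The count was 7 or 8 without WT FBS replicate 2, WT FBS replicate 3, KO paused replicate 1 or KO paused replicate 3. Between the paused groups 15 of the 31 were higher in KO paused, against 27.1% of all genes. Trp53 itself went from 1593, 2357 and 2762 to 628, 857 and 806 (−1.55 ± 0.33).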

How the data were processed

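The authors deposited raw counts for 24421 genes and 92 ERCC spike-ins, and log2 values said to be normalized to cell number. Per the submitters' processing notes, mm10, edgeR 3.32.1, Subread 1.5.0, featureCounts and Trim Galore 0.4.0 were used, with no role given. As the strand setting is not given in the sources used here, overlapping genes may share reads. Deposited counts were tested with edgeR 4.0.16 (quasi-likelihood, robust; R 4.3.3), as 4 group means over 12 libraries, on 15281 genes left by the default filter (minimum count 10, minimum total 15). Adjustment was by Benjamini and Hochberg at 0.05. Per cell, library size was the ERCC total times a TMM factor over ERCC rows, and relative to the typical gene it was the gene total times a TMM factor over genes. ERCC counts made up 1.32% to 1.36% of WT FBS and 2.42% to 2.67% of KO paused libraries. ERCC RNA was added after purification, so earlier losses are not corrected. SE is the absolute log2 value over the square root of F. For genes with 10 or fewer counts in a group, the text gives the ratio of pooled counts with an exact 95% binomial interval, which covers counting error only. By the correlation of same-numbered deviations the replicate numbers did not meet the bar for pairing, although replicate 1 had the highest Rn45s share in every group. No 2 replicates agreed within sampling noise. Positions are from GENCODE vM21 (GRCm38), where 377 gene rows had no match. The scripts were tested on simulated data.

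Named genes follow a rule: always Eif4ebp1, Mettl3, Mettl14, Myc, Mycn, Nanog, Pou5f1 and Sox2; the 12 highest and 12 lowest called genes with at least 5 CPM and no overlap (predicted and clone-named genes left out); the 12 most abundant held genes; the 8 held genes with the largest rise over WT paused; and per list up to 4 members with the lowest p on each scale, called members against the list median and held members. As no gene held within 1.5-fold, the 2-fold margin supplied the held genes. Only some list members are printed. The comparison, the gene lists and the rule were chosen with earlier results of these data known. Alternatives were DESeq2 1.42.0, limma 3.58.1 on the deposited log2 values, other scalings and filters, fewer libraries and a replicate block.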

Additional observations from a re-analysis of the deposited data

How the results depend on the processing

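The log2 difference in RNA per cell stayed between −0.96 and −0.86 when 1 library was left out, and was −0.94 with the plain ERCC total and −0.83 without Rn45s and Lars2. Counts of genes called per cell ranged from 967 to 1481 higher and from 4535 to 6443 lower when 1 library was left out, and on the relative scale from 4093 to 5594 higher and from 3826 to 5578 lower. With the relative scale in place of the spike-in scale, 4656 genes were higher and 4404 lower. Genes within 1.5-fold numbered 0 to 2 with 1 library left out, 54 with DESeq2, 995 with no filter on low counts, 728 in the fit over the compared groups alone, 626 with the replicate block and 2574 at the 2-fold margin. Genes differing between KO paused and WT paused ranged from 2775 to 4146 higher and from 567 to 948 lower when 1 library was left out. With residual degrees of freedom alone, an alternative added after seeing the data, they were 2505 higher and 470 lower, and those against WT FBS 988 and 4694.

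With the replicate block, 1725 genes were higher and 8003 lower per cell, and 4862 and 4540 relative. Deviations of same-numbered KO paused and WT FBS libraries correlated at 0.14, −0.03 and 0.16 per cell, and not every library correlated best with its own number. Among the genes named in the text, those with a per-cell estimate below 0 but called higher relative to the typical gene were Sox2 (0.40), Fat1 (0.63), Nsd1 (0.52), Arid1a (0.65), Ncor1 (0.38), Mcl1 (0.49), Clu (0.51), Wtap (0.49), Eif4g3 (0.41), Imp3 (0.50), Gldc (0.63), Cebpg (0.46), Scap (0.65), Fen1 (0.51) and Lifr (0.39). None of them was called lower per cell. The median gene was at −0.65 per cell and near 0 relative, so a gene between −0.65 and 0 per cell generally turns positive on the relative scale. Why these genes lay above the median gene was not tested. For Clu the relative call was lost without WT FBS replicate 3 (0.38) or KO paused replicate 1 (0.44). WT FBS replicate 1 had the fewest ERCC counts of the compared libraries, 163967, yet the RNA difference was −0.92 without it and moved most without WT FBS replicate 3, to −0.86. On genes tested in both fits, 1249 of 1400 higher and 5987 of 6677 lower calls per cell kept their call without WT FBS replicate 1.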

Other observations

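RNA polymerase genes were mostly lower per cell, where 43.7% of all genes were lower. ERK feedback genes were lower at about that share. RNA polymerase II and elongation genes had 32 of 44 lower and none higher (median −0.97), or 21 without WT FBS replicate 2 or KO paused replicate 1. RNA polymerase I and III genes had 24 of 35 lower and none higher (median −0.86), or 14 without WT FBS replicate 2 or 3 or KO paused replicate 1. ERK feedback and immediate early genes had 12 of 27 lower. Etv4, an ETS factor downstream of ERK, fell from 799.8, 1136 and 1225 to 235, 319 and 282 (−1.92 ± 0.33), and Fgfr2 was the 1 that rose (2 without WT FBS replicate 1).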
